A study of Zea mays with 16 samples.

Results

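RIL60 is a maize (Zea mays) recombinant inbred line that the submitters describe as drought tolerant, and its kernel response to water stress was measured on 4 of the series' 16 2-colour arrays. These 4 arrays were chosen by their titles. Each held poly(A) RNA of stressed and of well watered RIL60 kernels taken 10 days after pollination, so each array is itself a stress over well watered ratio. The stressed kernels carried Cy5 on replicates 1 and 2 and Cy3 on replicates 3 and 4. Field plants kept near 16% soil moisture, starting 3 weeks before flowering, were set against plants kept near 30%. RNA was extracted from pooled kernels, 6 to 9 taken from 3 ears, which averages over plants. The labels give 2 field blocks per treatment, and differences between blocks or pools were not tested apart from the stress. The other 12 arrays hold the same comparison in RIL78, also described as tolerant, and in RIL66 and RIL68, described as susceptible, with 4 arrays for each line. The labels do not say whether the 4 RIL60 arrays came from separate extracts, so the p-values rest on variation between hybridisations and this may be technical only. No probe ID of this array was found in the gene table used here, so the 1000 probes are called by their IDs. For the same reason the tissue could not be checked against marker genes of endosperm, embryo or pericarp.

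At about this age a maize kernel is passing from cell division in the endosperm to the storage of starch and of zeins, the seed storage proteins, and it depends on sucrose imported from the mother plant. Water stress around flowering is known to lower that supply and to raise abscisic acid, a hormone that induces dehydrins and other protective proteins in seeds. A recombinant inbred line is bred by repeated selfing after a cross, so RIL60 stands for 1 fixed genotype.

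Between stressed and well watered RIL60 kernels 29 of the 1000 probes were called as different, 2.90% of those tested. Rises outnumbered falls: 22 probes (2.20%) were higher and 7 (0.700%) were lower under stress. A probe was called where limma's p-value, adjusted by the Benjamini-Hochberg method over all 1000 probes, was below 0.05 in a linear model of all 16 arrays that gave each line its own coefficient and held a term for the dye. The rises lay between 0.48 and 1.57 on the log2 scale, with a median of 0.83. The falls lay between -1.74 and -0.45, with a median of -0.62. Over all 1000 probes the median was -0.01 and the median size 0.12. A change of 2-fold or more was reached by 10 probes, of which 9 were called, 8 higher and 1 lower. Ratios were normalised within each array, so a shift of all probes together cannot be seen. In a whole kernel, fewer cells of a type and less RNA per cell cannot be told apart.

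The probes called were among those on which both dye orientations gave one direction. All 29 had the same sign on all 4 arrays, as did 207 of the 1000 probes (20.7%). The sign followed the dye for 285 probes (28.5%), positive on both arrays of one orientation and negative on both of the other. With one sign throughout, none of the 29 could be among them. An extreme case, singled out after its values were seen, was a116pe0708. It read -1.64 and -1.47 with stress in Cy5 and 2.44 and 1.12 with stress in Cy3. The dye term of the fit was itself called for 109 probes (10.9%), among them 5 of the 29, a116pe0829, a116pe0665, a116pe0576, a116pe0507 and a116pe0240.

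**Figure D1:**
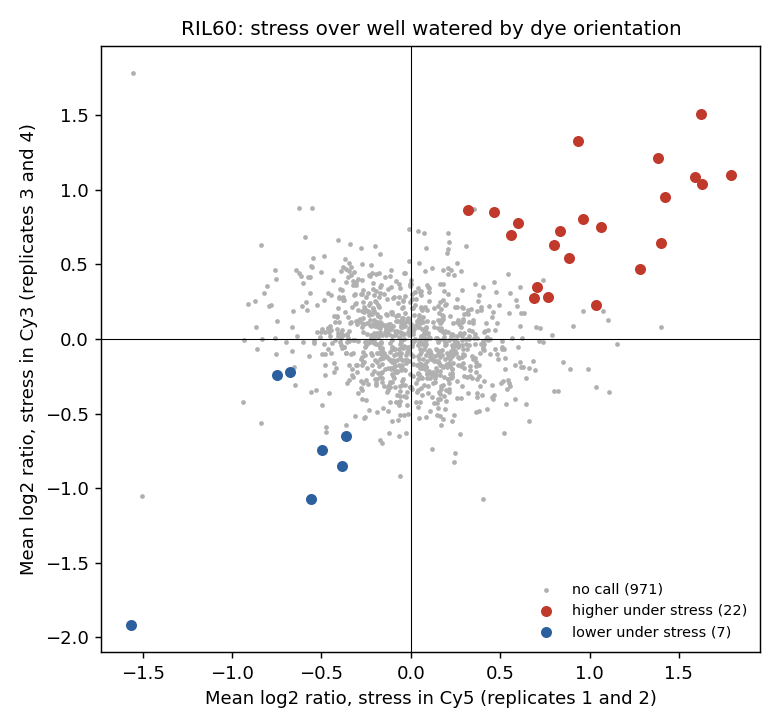
Mean log2 ratio of stress over well watered for each of the 1000 probes in RIL60, with stress in Cy5 (replicates 1 and 2, horizontal) against stress in Cy3 (replicates 3 and 4, vertical); the 22 probes called higher are red, the 7 called lower are blue and the other 971 are grey. The called probes lie in the corners where both orientations have one sign, while the grey cloud shows almost no relation between orientations (Pearson's r = 0.06 over all 1000 probes).

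Arrays of one orientation resembled each other far more than arrays of opposite orientation. Across the 1000 probes, which are not independent replicates, Pearson's r was 0.72 between replicates 1 and 2 and 0.45 between replicates 3 and 4. Between arrays of opposite orientation it ran from -0.02 to 0.14. The 316 probes whose signal was above background in both channels on all 4 arrays gave 0.88 and 0.86 within an orientation and 0.17 to 0.31 between orientations. The mean of both orientations, which carries the response, had an SD over probes of 0.25. Their half-difference had an SD of 0.23. It carries the dye and any other difference between replicates 1 and 2 and replicates 3 and 4. Dye and replicate pair cannot be told apart here. These spreads were of similar size. A balanced dye swap cancels a dye effect in the mean of the 4 arrays, but not on a single array.

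Replicate 3 had the smallest share of spots above background, with the highest background and the highest raw intensity of the 4 arrays. Its median background was 773 in Cy5 and 696 in Cy3, against at most 357 and 544 on the other arrays, and its median intensities were 2426 and 2284. Spots whose signal in either channel was above background made up 49.7% of its probe spots, against 72.6%, 76.0% and 73.9% on replicates 1, 2 and 4. A spot was taken as above background where its intensity exceeded it by more than 2 background SDs. The correlation between duplicate spots of a probe was 0.36 on replicate 3 and 0.62, 0.66 and 0.59 on the other arrays. Its file header also records another day than those of replicates 1, 2 and 4. The fit without replicate 3 therefore holds RIL60 arrays of 1 day, and it called 13 probes, all 13 among the 29.

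Signal over background differed among the 29. Both channels were above background on all 4 arrays for 15 of them, and for 31.6% of all probes. None of the 29 lay below background throughout, as 165 probes (16.5%) did. Every measured spot, up to 8 per probe, had one sign for 26 of the 29 and for 92 of the 1000 probes (9.20%). The exceptions were a116pe0946, a116pe0576 and a116pe0620, each with 7 of 8 spots in one direction, while a116pe0242 had 1 spot excluded by the authors. Levels of the stressed and the well watered channels, on the log2 intensity scale across arrays, did not overlap for 15 of the 29 (13 higher, 2 lower) and for 32 of the 1000 probes (3.20%).

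Among the 22 rises, 11 had a well watered signal above background on all 4 arrays. The limit was easier to pass in Cy5, which carried the well watered kernels on replicates 3 and 4. In Cy5 68.2%, 75.7%, 46.7% and 73.1% of probe spots passed on replicates 1 to 4, against 55.2%, 45.5%, 41.8% and 53.2% in Cy3. In a116pe0973 the log2 ratios on replicates 1 to 4 were 1.52, 1.72, 1.56 and 1.45. Its level was between 10.79 and 11.07 in well watered kernels and between 12.31 and 12.79 under stress. The groups were far apart and the array values nearly equal, with a 2.96-fold rise of 1.57 ± 0.11 on the log2 scale (SD, n = 4 arrays; limma's adjusted p = 1.36e-05). Probe a116pe0788 read 1.53, 1.65, 1.26 and 0.91, with levels of 10.56 to 10.97 in well watered kernels and 11.88 to 12.38 under stress. These levels did not overlap either, and the rise was 2.53-fold at 1.34 ± 0.33 (adjusted p = 1.36e-05). Probe a116pe0104 read 1.22, 0.65, 1.24 and 1.41, lowest on replicate 2, a 2.19-fold rise of 1.13 ± 0.33 (adjusted p = 9.29e-05). For a116pe0793 the ratios were 1.01, 1.11, 0.72 and 0.78, a 1.87-fold rise of 0.91 ± 0.19 (adjusted p = 0.000140). Its stress level of 10.54 to 11.86 overlapped its well watered level of 9.82 to 10.85, although stress was the higher channel on each array.

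The other 7 of these 11 rose less. Ratios of a116pe0106 were 0.69, 0.51, 0.72 and 0.83, and those of a116pe0649 were 0.60, 0.53, 0.89 and 0.50. Both varied little between arrays, with means of 0.69 ± 0.13 and 0.63 ± 0.18 (limma's adjusted p = 0.0107 and 0.0175). Replicate 3 was the lowest for a116pe0813, at 0.26 against 0.99, 0.79 and 0.83 (adjusted p = 0.0202). Over all 22 rises, 17 had the larger mean with stress in Cy5, among them a116pe0788, a116pe0793 and a116pe0872. The share over all probes was not counted. In the remaining 4 of these 7 probes both arrays with stress in Cy5 read higher than both with stress in Cy3. For a116pe0945 they were 1.40 and 1.16 against 0.59 and 0.34 (adjusted p = 0.0192). For a116pe0507 they were 1.13 and 0.94 against 0.18 and 0.28 (adjusted p = 0.0146). The rises of these probes were largely read in one orientation and were small in the other. Probe a116pe0145 read 0.66 and 0.87 against 0.32 and 0.24 (adjusted p = 0.0174), and a116pe0866 read 0.64 and 0.73 against 0.35 and 0.20 (adjusted p = 0.0251).

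**Figure D2:**
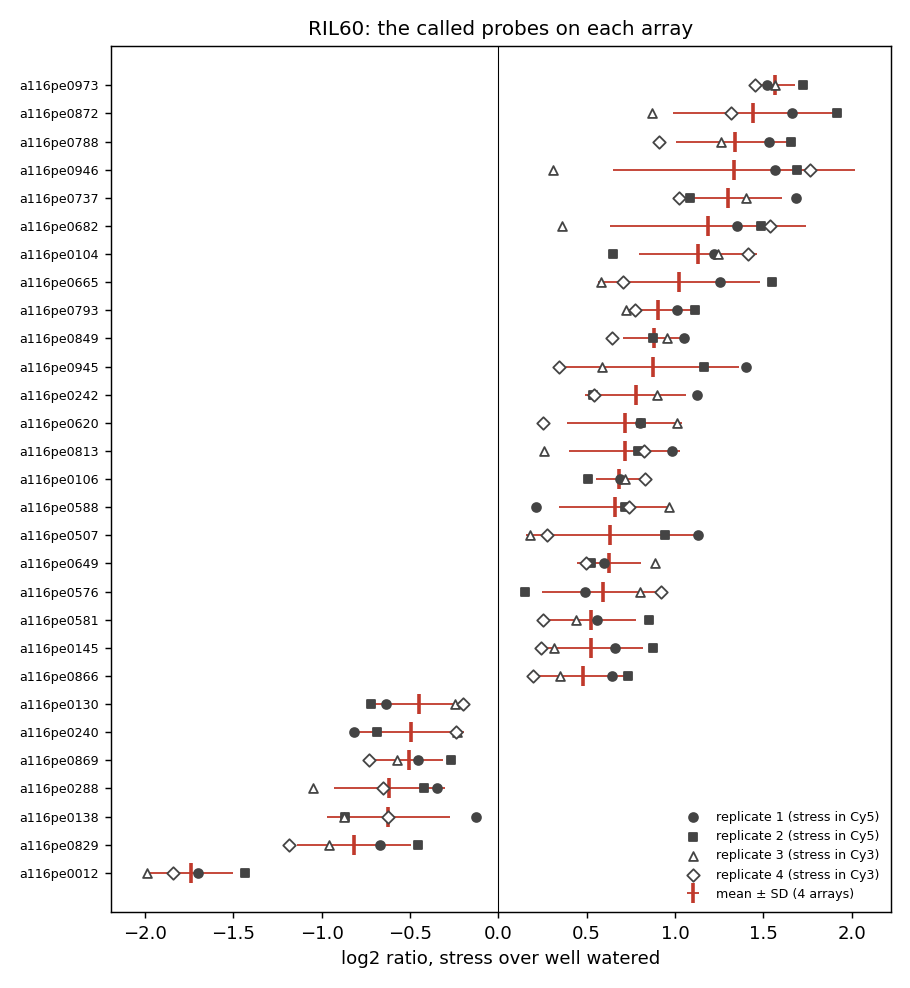
Log2 ratio of stress over well watered in RIL60 (horizontal) for the 29 called probes (vertical, ordered by their mean); filled symbols are the arrays with stress in Cy5, open symbols those with stress in Cy3, and the red bar and line give mean ± SD over the 4 arrays. Every array lies on one side of 0 for each probe, the means run from -1.74 to 1.57, and replicate 3 (open triangle) lies far below the other arrays for a116pe0946 and a116pe0682.

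In another 7 rises the well watered signal was above background on 1 to 3 of the 4 arrays, which leaves the size of the rise less certain than its direction. Probe a116pe0872 read 1.66, 1.92, 0.87 and 1.32, a 2.72-fold rise of 1.44 ± 0.45 (SD, n = 4 arrays; limma's adjusted p = 5.95e-05). Its well watered signal was above background on 1 array and its stress signal on 4. Probe a116pe0737 read 1.69, 1.08, 1.40 and 1.02, a rise of 1.30 ± 0.31 (adjusted p = 5.42e-05), with a signal above background on 1 array in well watered kernels and on 3 under stress. Without background correction these rises were 0.76 and 0.47, both still called. In a116pe0946 replicates 1, 2 and 4 read 1.57, 1.69 and 1.76 and replicate 3 read 0.31, and the mean was 1.33 ± 0.69 (adjusted p = 0.000430). Leaving out replicate 3 raised it to 1.74 (adjusted p = 3.84e-06). Probe a116pe0849 read 1.05, 0.87, 0.96 and 0.64, one of the narrowest spreads among the rises, at 0.88 ± 0.17 (adjusted p = 0.00207). Values of a116pe0665 were 1.25 and 1.55 with stress in Cy5 and 0.58 and 0.70 with stress in Cy3, a mean of 1.02 ± 0.46 (adjusted p = 0.00521). The orientations were reversed in order for a116pe0576, at 0.49 and 0.15 in Cy5 and 0.80 and 0.92 in Cy3 (adjusted p = 0.00992), and its signal was above background on 1 array in each condition. Probe a116pe0581 read 0.56, 0.85, 0.44 and 0.25 (adjusted p = 0.0204).

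The last 4 rises, a116pe0682, a116pe0242, a116pe0588 and a116pe0620, had no well watered signal above background on any array, so their folds are given against a floor. Each sets the mean stress level of the 4 arrays against the lowest signal above background on the same arrays, or the probe's own well watered signal where that was higher. These folds are not strict lower bounds, as the stress level includes arrays not above background. On the log2 scale they were 0.68, 0.49, 0.50 and 0.40 in the order named. The measured rises without background correction were smaller, at 0.47, 0.28, 0.21 and 0.23. Probe a116pe0682 was 1.60-fold higher under stress against the floor, with measured ratios of 1.35, 1.49, 0.36 and 1.54 (limma's adjusted p = 9.29e-05) and a stress signal above background on 3 arrays. The low reading came from replicate 3, and without that array the measured mean rose from 1.19 to 1.44. The other 3 had a stress signal above background on 2 arrays each. Against the floor they were 1.41-fold (a116pe0242), 1.41-fold (a116pe0588) and 1.32-fold (a116pe0620) higher. Their measured ratios were 1.13, 0.54, 0.90 and 0.54 for a116pe0242 (adjusted p = 0.0107). They were 0.22, 0.72, 0.96 and 0.74 for a116pe0588 (adjusted p = 0.0117) and 0.80, 0.81, 1.01 and 0.25 for a116pe0620 (adjusted p = 0.0212). The lowest array thus differed from probe to probe.

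**Figure D3:**
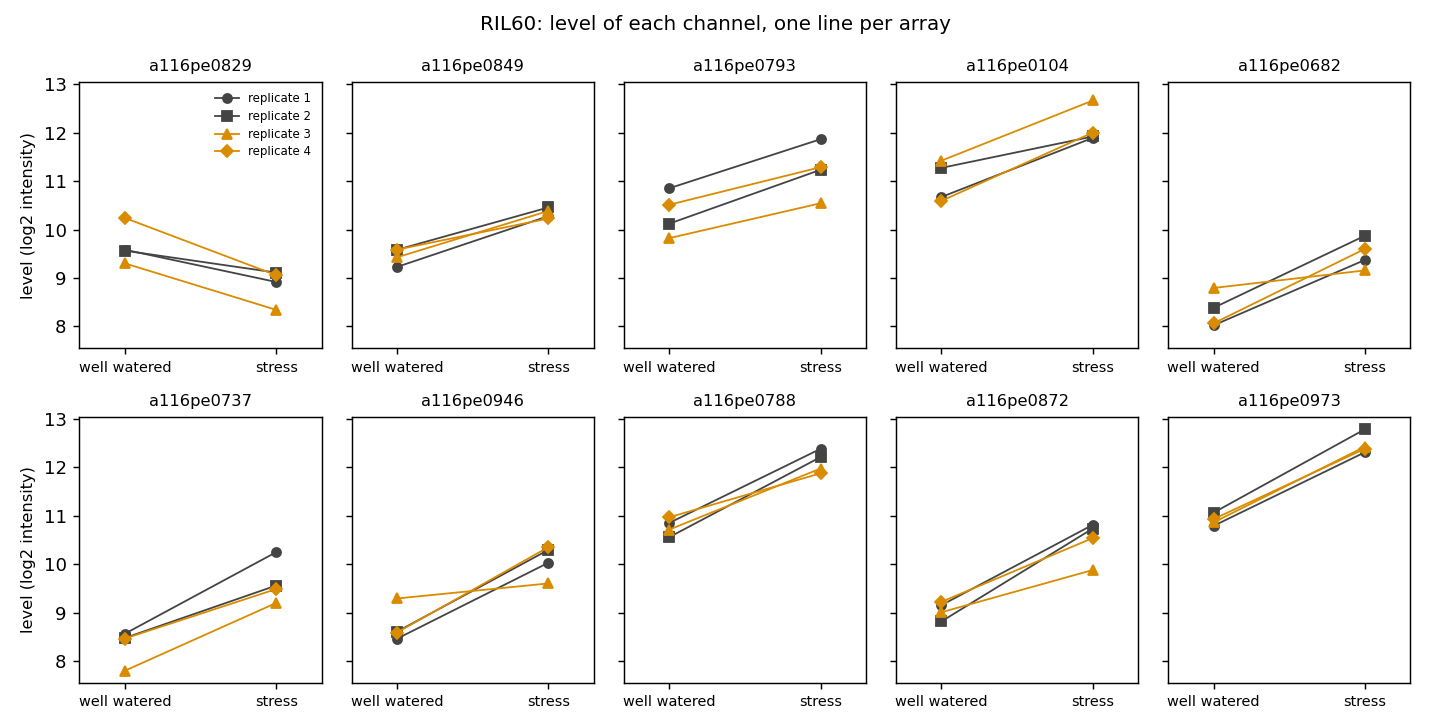
Level of the well watered and the stressed channel (log2 intensity after scaling all channels to a common average) in RIL60 for the 10 probes whose call held whichever of the 16 arrays was left out; each line joins the channels of 1 array, grey with stress in Cy5 and orange with stress in Cy3. All 4 lines fall for a116pe0829 and rise for the other 9 probes, and the channels overlap between arrays only for a116pe0793.

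Of the 7 falls, that of a116pe0829 was called with the smallest p-value and that of a116pe0012 was the largest. Ratios of a116pe0829 were -0.67, -0.45, -0.96 and -1.18, a fall that was 1.76-fold at -0.82 ± 0.32 (SD, n = 4 arrays; limma's adjusted p = 0.00126). Its level was 9.30 to 10.24 in well watered kernels and 8.34 to 9.11 under stress. The levels did not overlap, but the signal was dim: it was above background on 1 array in well watered kernels and on 2 under stress. The fall was called with every array left out in turn. Without background correction it was -0.38 and still called.

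Probe a116pe0012 read -1.70, -1.43, -1.99 and -1.84, a 3.34-fold fall of -1.74 ± 0.24 (SD, n = 4 arrays; limma's adjusted p = 0.0442). Both channels were far above background, at 13.93 to 14.68 in well watered kernels and 11.94 to 12.98 under stress. The array values were close together, yet the adjusted p lay just inside the threshold, in a fit that pools each probe's spread over the 4 lines. With the RIL60 arrays alone it was 0.00137, and without replicate 2 of RIL68, which read 3.62 where the other arrays of that line were below 0, it was 1.71e-07. It was lost without any 1 of the RIL60 arrays (adjusted p from 0.122 to 0.238). Leaving out an array of RIL78 (replicate 1, 3 or 4) or of RIL66 (replicate 2 or 3) also put it past 0.05, at most to 0.0596. So did scaling the spread of the arrays (0.383), a fit with no dye term (0.0847) and a normexp offset of 10 (0.0571).

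A similar pattern was seen in a116pe0026, the largest response that missed the threshold. It read -1.36, -1.65, -0.71 and -1.39 in RIL60, a mean of -1.28 ± 0.40 (SD, n = 4 arrays; limma's adjusted p = 0.241). The levels were 13.91 to 14.43 in well watered kernels and 12.41 to 13.71 under stress, without overlap. Without replicate 2 of RIL68, at 3.71 for this probe, the adjusted p was 0.00230, and with the RIL60 arrays alone it was 0.00967. The 2 other large responses without a call were a116pe0862, at 1.32, 1.48, 0.06 and 0.10 (adjusted p = 0.0878), and a116pe0174, at -0.72, -0.96, -0.47 and -0.66 (adjusted p = 0.238). The first was read in one orientation only. The second had one sign throughout and passed with the RIL60 arrays alone (adjusted p = 0.0165).

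The other 5 falls were smaller and all lay close to the threshold. Probe a116pe0138 read -0.13, -0.86, -0.87 and -0.62, and a116pe0288 read -0.35, -0.42, -1.05 and -0.65 (limma's adjusted p = 0.0366 and 0.0448). Probe a116pe0869 read -0.45, -0.27, -0.57 and -0.73 (adjusted p = 0.0448), with a signal above background on 1 array in each condition. Falls of a116pe0240 and a116pe0130 were deeper with stress in Cy5, at -0.82 and -0.68 against -0.24 and -0.24 for the first and -0.64 and -0.72 against -0.25 and -0.20 for the second (adjusted p = 0.0448 and 0.0451). Just outside the threshold were a116pe0920 at 0.57 ± 0.46, a116pe0121 at -0.48 ± 0.20 and a116pe0819 at 0.57 ± 0.21 (adjusted p = 0.0511, 0.0538 and 0.0542). These sizes match those of the probes just inside it, so the list has no natural edge.

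A core of the list did not depend on any single array. The call of 10 probes held with any of the 16 arrays left out: a116pe0973, a116pe0872, a116pe0788, a116pe0946, a116pe0737, a116pe0682, a116pe0104, a116pe0793 and a116pe0849 among the rises and a116pe0829 among the falls. All of these except a116pe0829 also held in all 16 other ways of processing the data. Fits that lacked 1 RIL60 array called 13, 12, 13 and 15 probes, in the order of the replicate left out, and 10 of the 29 probes were called in none of these 4 fits. With no dye term 17 probes were called, 16 higher and 1 lower. Every one of the 29 kept its sign in all of these settings. All 29 had one sign on all 4 arrays, so this outcome was nearly fixed in advance.

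**Figure D4:**
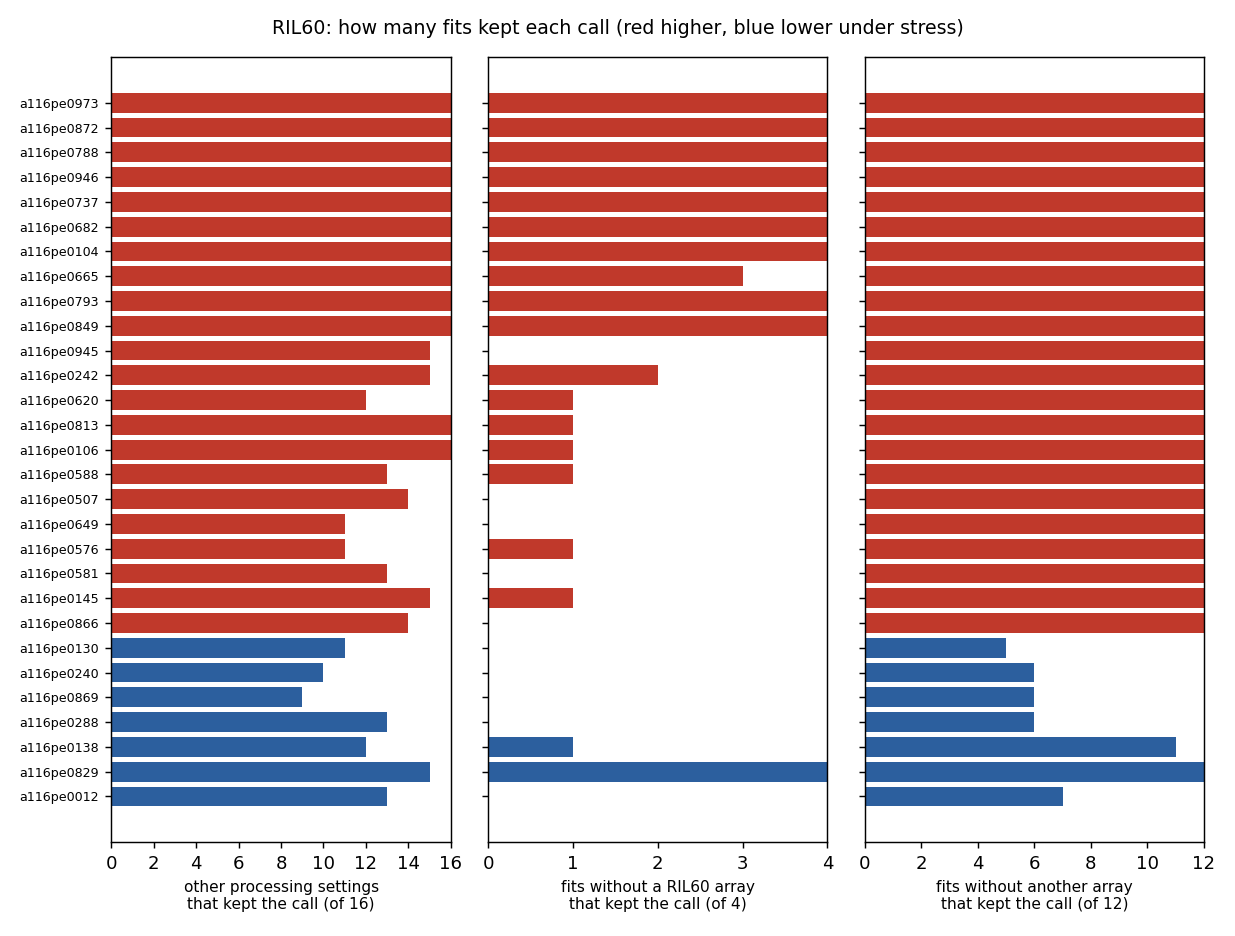
Number of fits (horizontal) in which each of the 29 probes (vertical, ordered by mean ratio, red higher and blue lower under stress) kept its call: 16 other processing settings, 4 fits without 1 RIL60 array and 12 fits without 1 array of another line. The larger rises and a116pe0829 fill the panels of left-out arrays, while 6 of the 7 falls also lose calls when an array of another line is left out.

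Where the RIL60 response differed from that of the other lines was tested in the same fit, as RIL60 minus the mean of RIL78, RIL66 and RIL68. The difference was called for 18 of the 1000 probes (1.80%), 15 with the higher value in RIL60 and 3 with the lower. Of these, 13 were among the 29, 12 rises and 1 fall. The error is the spread between hybridisations of single lines, so the test speaks for these 4 lines and not for tolerant and susceptible maize. By the file headers, replicates 1, 2 and 4 of RIL60 share a day with all 4 arrays of RIL78 and with none of RIL66 or RIL68, so the difference from all 3 lines has no value within a day. With the header day as a random block the count was also 18, all of them shared. The correlation within a day was estimated at 0.012, so this fit was nearly the main fit and cannot separate day from line.

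Of the 8 rises of 2-fold or more in RIL60, 4 had all 3 other lines within 0.5 of 0: a116pe0946, a116pe0682, a116pe0788 and a116pe0665. Probe a116pe0946 rose by 1.33 in RIL60 and was at -0.19, -0.0037 and -0.06 in RIL78, RIL66 and RIL68, a difference of 1.42 (SE 0.24; limma's adjusted p = 0.00142). Probe a116pe0682 was at 1.19 in RIL60 and at -0.09, -0.03 and -0.01 in the other lines, a difference of 1.23 (SE 0.19; adjusted p = 0.000838). In those lines a116pe0682 was above background only on 2 well watered arrays of RIL66, so its values near 0 there rest mostly on background. The signal of a116pe0946 was above background on 2 well watered and 2 stressed arrays of RIL78, on 2 and 1 of RIL66, and on 0 of RIL68. In a116pe0788 the other lines read 0.14, 0.42 and -0.04, a difference of 1.17 (SE 0.17; adjusted p = 0.000678). For a116pe0665 they read -0.08, 0.08 and -0.23, and the difference was 1.10 (SE 0.23; adjusted p = 0.00968). Leaving out replicate 2 of RIL60 took that last difference to 1.03 (adjusted p = 0.0697), and with no dye term it missed the threshold too (adjusted p = 0.0653). Single RIL78 arrays ran from -0.82 to 1.33 for a116pe0665 and from -0.40 to 0.96 for a116pe0788, which reaches into the RIL60 range of each probe. Probe a116pe0973 differed by 1.26 (SE 0.20; adjusted p = 0.00106) although it also rose in RIL68, at 1.08 ± 0.20, while RIL78 and RIL66 read 0.14 and -0.29. Its signal was above background on 1 well watered and 2 stressed arrays of RIL78, and on 3 and 0 of RIL66. Among the other rises with a called difference were a116pe0793 at 1.06, a116pe0737 at 1.02, a116pe0849 at 0.87, a116pe0872 at 0.86, a116pe0106 at 0.85 and a116pe0104 at 0.82. Of these, a116pe0737 was above background on 0 arrays of RIL78 and only on 1 stressed array of RIL68. Both a116pe0849 and a116pe0872 were above background on 0 arrays of RIL68. Each of the 3 other lines lay within 0.5 of 0 for 14 of the 22 rises. The share of all probes within this limit was not counted, so the count cannot be read as particular to the rises.

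For 5 probes all 4 RIL60 arrays lay outside the range of all 12 arrays of the other lines, and all 5 were among the 29 (0.500% of the 1000 probes). They were a116pe0973, a116pe0682, a116pe0793, a116pe0849 and a116pe0106. In a116pe0793 the RIL60 arrays lay between 0.72 and 1.11 and the other 12 between -0.58 and 0.41. In a116pe0849 they lay between 0.64 and 1.05 against -0.76 to 0.53, and in a116pe0106 between 0.51 and 0.83 against -0.77 to 0.41. The gap was narrowest for a116pe0106. For a116pe0973 the lowest RIL60 array of 1.45 stood against a highest of 1.31, from RIL68.

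**Figure D5:**
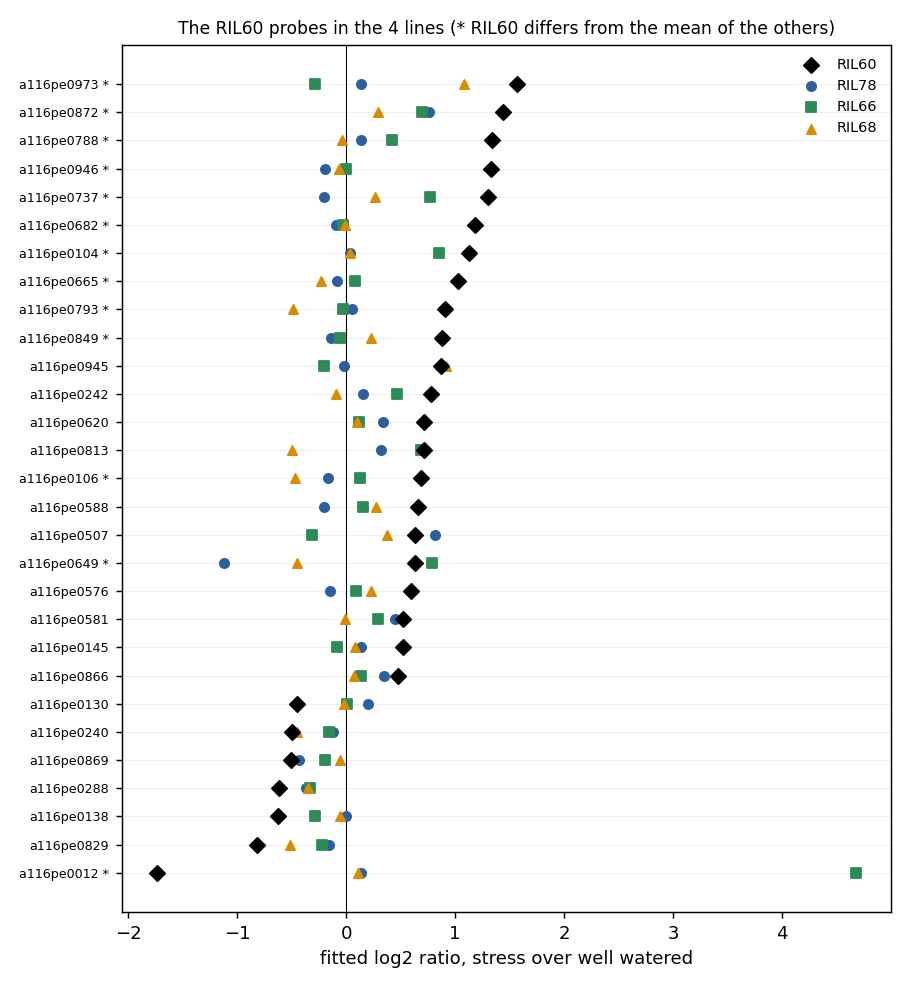
Fitted log2 ratio of stress over well watered (horizontal) of the 29 probes called in RIL60 (vertical, ordered by the RIL60 value) in each of the 4 lines; an asterisk marks the 13 probes whose RIL60 response differed from the mean of the other lines. For 14 of the 22 rises all 3 other lines lie within 0.5 of 0 (the share over all probes was not counted). Called responses of opposite sign are those of a116pe0012 in RIL66 (4.67) and a116pe0649 in RIL78 (-1.12).

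The 3 probes on the lower side of the difference passed only with RIL66 in the mean. Probe a116pe0012 differed by -3.38 (SE 0.52; limma's adjusted p = 0.000838), from a RIL60 value of -1.74 while RIL78, RIL66 and RIL68 read 0.14, 4.67 and 0.11. Probe a116pe0026 differed by -3.42 (SE 0.56; adjusted p = 0.00106), at -1.28, 0.55, 5.50 and 0.37 in the same order. Probe a116pe0174 differed by -1.49 (SE 0.30; adjusted p = 0.00835), at -0.70, 1.46, 1.31 and -0.40. With RIL66 left out of the mean these differences were -1.86, -1.74 and -1.23 and none passed (adjusted p = 0.119, 0.211 and 0.0586). The largest RIL66 values were those of a116pe0012 and a116pe0026, while for a116pe0174 RIL78 and RIL66 were both higher, and it also missed the threshold with RIL78 left out (-1.16, adjusted p = 0.0884). The RIL68 means of a116pe0012 and a116pe0026 hold replicate 2, at 3.62 and 3.71. Without it they were -1.06 and -0.74 (n = 3 arrays), negative as in RIL60, and the differences were -3.00 and -3.04, both called. With RIL66 left out of the mean 15 probes were called, all higher in RIL60 and all among the 18. With RIL78 left out there were 15, of which 11 were among the 18, and with RIL68 left out 19, of which 15 were. The higher side thus also depended on which lines formed the mean. These 3 alternatives were chosen after seeing the data.

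The levels of both large probes differed between the lines in the well watered kernels too. The well watered level of a116pe0012 (log2 intensity, 4 arrays a line) lay between 13.93 and 14.68 in RIL60, 14.89 and 15.56 in RIL78, 10.02 and 10.97 in RIL66, and 11.81 and 14.53 in RIL68. Under stress the ranges were 11.94 to 12.98, 15.30 to 15.52, 14.53 to 15.66 and 12.98 to 15.42 in the same order. The stressed level of RIL60 thus lay at or below that of every other line, touching RIL68, and the well watered level of RIL66 lay below that of every other line. For a116pe0026 the mean well watered levels were 14.11 ± 0.22, 13.60 ± 0.51, 9.01 ± 0.93 and 12.66 ± 1.05, and the stressed levels 12.84 ± 0.60, 14.15 ± 0.48, 14.51 ± 0.22 and 13.03 ± 1.21 (SD, n = 4 arrays). The stressed levels of RIL60 and RIL68 lay within their spread. Differences in level between the lines were not tested, and for RIL66 and RIL68 they cannot be told apart from the header day.

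The remaining 3 probes with a called difference were not called in RIL60 itself. Probe a116pe0368 was at 0.25 in RIL60 and -0.85 in RIL78, a116pe0552 at 0.38 and -0.56, and a116pe0677 at 0.36 and -0.52. Their differences from the mean of the other lines were 0.72, 0.60 and 0.58 (limma's adjusted p = 0.0103, 0.0416 and 0.0290), and all 3 fell in RIL78. The RIL60 values were positive on all 4 arrays for a116pe0552 and a116pe0677.

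At least 1 other line called 10 of the 29 (34.5%), against 10.2% of all probes, and 19 were called in RIL60 alone. Direction was not part of these counts: a116pe0012 in RIL66 and a116pe0649 in RIL78 were called the opposite way from RIL60. RIL78 called 4 (13.8%, against 7.50% of all probes), RIL66 called 5 (17.2%, against 2.60%) and RIL68 called 2 (6.90%, against 0.700%). The lines share 1 fit, with a common spread and dye term for each probe, and the overlap was not tested. The sign was shared by all 4 lines for 9 of the 29 (31.0%) and for 18.9% of all probes. The 4 in RIL78 were a116pe0872 at 0.76, a116pe0507 at 0.82, a116pe0581 at 0.45 and a116pe0649 at -1.12. In RIL66 they were a116pe0737 at 0.77, a116pe0104 at 0.85, a116pe0649 at 0.79, a116pe0813 at 0.68 and a116pe0012 at 4.67. Probes a116pe0973 and a116pe0945, at 0.92, rose in RIL68.

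Probe a116pe0649 went opposite ways in the lines described as tolerant. It rose by 0.63 in RIL60, by 0.79 in RIL66, and fell by 1.12 in RIL78, where the 4 arrays lay between -1.65 and -0.85. RIL68 stood at -0.45 without a call (limma's adjusted p = 0.179). Its difference from the mean of the other lines was 0.89 (SE 0.17; adjusted p = 0.00371). The RIL60 rise lost its call without any 1 RIL60 array, while its value stayed positive in every setting.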

How the data were processed

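Kernel poly(A) RNA of 4 lines was hybridised to 16 2-colour arrays. Per the file headers, the authors deposited linear spot intensities and local backgrounds from a ScanArray scanner, not background subtracted, with 2048 spots per array (1000 probes with 2 spots each and 48 control spots). The deposited table of log2 ratios, made by steps not given in the sources used here, was matched to spots by slide position; its RIL60 columns correlated at 0.88 to 0.98 with the ratios computed here, which places its direction at stress over well watered and its centring near 0 (medians 0 to 0.00144), while its scale stays unknown. It served as an alternative.

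Intensities were corrected with normexp (offset 50) and normalised by loess within arrays, with controls and spots marked by the authors (27 in RIL60) at weight 0. Ratios of both spots of a probe were averaged without marked spots, and every ratio was set to stress over well watered from the labelled dyes. Levels per channel came from Aquantile scaling. limma 3.58.1 in R 4.3.3 fitted all 16 arrays with a coefficient per line and 1 dye term, with Benjamini-Hochberg adjustment over 1000 probes and a threshold of 0.05. SDs are over arrays and SEs come from the moderated fit. Precision is limited by the number of arrays. The procedure was tested on simulated data, and figures were drawn with matplotlib 3.10.9. None of the 1000 probe IDs was among the 49888 rows of the gene table, so the gene and marker lists prepared for naming were not used.

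The rule named every probe past the threshold, the 3 just outside it, the 3 largest not called and the 5 largest differences from the other lines in each direction. These arrays, lists and tests were chosen with earlier results of these data known. The main fit did not pair the arrays of different lines by replicate number. Alternatives covered background, normalisation, the deposited values, dim and marked spots, the dye term, blocks, array weights, thresholds and each array left out.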

Additional observations from a re-analysis of the deposited data

Results flagged for a closer look

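Replicate 3 of RIL60 stood apart from the other 3 arrays of the line in 3 measures. The share of probe spots above background was 49.7%, and the log2 ratios of a116pe0682 and a116pe0946 were 0.36 and 0.31, far below those on the other arrays. Of 35 named probes tested, 2 had such a value, and chance gives about 1 in 20 groups. Its file header records another day than the other RIL60 arrays, its background was the highest of the 4, and the part of either in these values was not tested.

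The RIL60 response differed from the mean of the other 3 lines, by limma's test of the difference, for 18 probes. The difference was 1.42 for a116pe0946, 1.26 for a116pe0973, 1.23 for a116pe0682, 1.17 for a116pe0788, 1.10 for a116pe0665, 1.06 for a116pe0793 and 1.02 for a116pe0737. It was 0.89 for a116pe0649, 0.87 for a116pe0849, 0.86 for a116pe0872, 0.85 for a116pe0106, 0.82 for a116pe0104, 0.72 for a116pe0368, 0.60 for a116pe0552 and 0.58 for a116pe0677. It was -3.42 for a116pe0026, -3.38 for a116pe0012 and -1.49 for a116pe0174.

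Control spots carrying 1 name were above background more often in Cy5 than in Cy3 on 3 of the 4 RIL60 arrays. Of 24 such spots on each array, 13, 14, 2 and 12 were above background in Cy5 on replicates 1 to 4 of RIL60, against 4, 3, 3 and 3 in Cy3. The content of these spots was not analysed here, and they were left out of every test.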

How the results depend on the processing

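The RIL60 response counted 29 probes. It was 58 without background correction (38 higher, 20 lower), 56 with plain subtraction, 19 with median centring, 60 with the deposited values (39 and 21), 17 with no dye term (16 and 1), 66 with the RIL60 arrays alone (41 and 25), 100 with array weights (64 and 36), 49 with spots kept apart, 12 at an adjusted p of 0.01 and 9 at 2-fold or more. With an offset of 10 the split was 22 and 2. Without 1 array at a time it ran from 12 to 35. The difference from the other lines counted 18. It was 29 with plain subtraction, 60 with array weights (41 and 19) and 10 at 2-fold or more, and ran from 12 to 25 without 1 array at a time. With the replicate number as a block (replicate block) the counts were 28, of which 26 were among the 29, and 19. Arrays of different lines with the same number had residuals correlating at a mean of 0.04, against -0.01 for different numbers. The main fit did not pair them, and whether the numbers stand for a pairing was not tested. The cause of these changes was not tested, apart from the stricter thresholds, which can only lower a count. Among values of single probes none turned sign: 1229 stayed on the same side of the threshold, 53 newly passed and 190 no longer passed. Dim signal limits the sizes: a116pe0682, a116pe0946 and a116pe0829 were at 0.47, 0.61 and -0.38 without background correction, each still called.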
